A study of Mus musculus with 31 samples.

Results

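The genes described here encode the proteins of the cytosolic ribosome. They were protein-coding genes chosen by name and biotype alone. The symbol had to be Rpl or Rps, then a number, then nothing but letters if anything. Rplp0, Rplp1, Rplp2 and Rpsa were taken too, and the Rps6k kinases were left out. This gave 82 of the 24594 genes counted, 49 of the large ribosomal subunit and 33 of the small one. The choice used no measured value, but it was made with earlier results of these data known. RNA was sequenced from CD4+ CD25+ T cells sorted as regulatory T cells (Tregs), the T cell class that restrains immune responses. Tumor-bearing mice carried K14cre;Cdh1F/F;Trp53F/F (called KEP), in which a keratin 14 promoter drives Cre recombinase to delete E-cadherin and p53, and had spontaneous mammary tumors of 225 mm2. Their comparators were wild-type (WT) littermates of genotype wt;Cdh1F/F;Trp53F/F, which carry the same floxed alleles without the Cre. All mice were FVB/N, and their ages are not given in the sources used here. KEP blood, lung, spleen, tumor-draining lymph node and tumor had 3 libraries each, every one from 1 mouse. WT blood, lung, spleen and lymph node had 3 libraries each and WT mammary gland had 4, every one a pool of 3 mice. The gate did not include Foxp3, so CD25+ conventional T cells could enter it.

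A ribosome joins a small subunit, which reads the messenger RNA, to a large subunit, which forms the peptide bonds. Each protein is needed in about equal number, and mammalian ribosomal protein transcripts begin with a pyrimidine-rich stretch, the terminal oligopyrimidine motif, through which mTORC1 and LARP1 control their translation. In T cells ribosome production rises with activation and growth. A change in transcript level says nothing about how much of it was translated, which was not measured.

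Total counts per library ran from 8154765 to 15258958, from 4500 to 70000 sorted cells. The summed level of 10 pan-T genes was 5742 to 6735 CPM (counts scaled by library size and TMM factors) in all KEP blood, lung, spleen and lymph node libraries, against 5378 to 6530 CPM in the WT libraries of these tissues. It was 2127 to 6983 CPM in KEP tumor and only 183 to 2118 CPM in WT mammary gland, where 7 of 7 milk protein genes were detected and summed to 5703 to 36100 CPM. Values of the mammary gland libraries are thus values of a mixture with other cells. KEP and WT libraries share no title date, so date and genotype cannot be told apart. In bulk samples, fewer cells of a type and less RNA per cell cannot be told apart either.

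Of the 82 genes, 81 passed the filter on low counts and were tested among 15202 genes. The exception was Rpl3l, the striated-muscle counterpart of Rpl3, which had at most 0.432 CPM in any library. Transcripts of this family resemble one another's processed pseudogenes. The principal annotated transcript of each member was cut into all stretches of 65 bases, the read length used. A median of 52.4% of them per member occurred in no other annotated gene, and 39 members had fewer unique than shared stretches. Rps4l had no value. Whether reads with several matches were counted is not given in the sources used here, so the values of such members are uncertain. The exons of 38 members overlapped those of another gene, and whether strand was used in counting is not given either.

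Measured per kb of exon and averaged over all 31 libraries, Rplp1, a protein of the stalk that recruits translation factors, stood highest with 2284 CPM per kb. Other members with high levels were Rps15 with 1393, Rpl4 with 1021 and Rplp0, the base of the stalk, with 929 CPM per kb. The median member had 207 CPM per kb. The lowest were Rpl3l with 0.020, Rps4l with 0.54, Rpl39l with 0.594, Rpl21 with 4.39 and Rps2 with 7.73 CPM per kb. Rpl21 and Rps2 encode core proteins of every ribosome, and 69 and 58 other genes share stretches with them. How many of their reads were counted is not known from the file.

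The family took the lowest share of all counts in KEP tumor, KEP blood and KEP lung. In KEP blood the share was 3.31% ± 0.131 (SD, n = 3; 3.16 to 3.40%) and in WT blood 4.37% ± 0.539 (4.06 to 5.00%). In KEP lung it was 3.56% ± 0.245 (3.33 to 3.81%), and in WT lung 4.53% ± 0.488 (4.03 to 5.00%). The groups did not overlap in either tissue. In spleen they overlapped, with 4.56% ± 0.317 in KEP and 4.86% ± 0.328 in WT. In lymph node the order was the opposite, with 5.19% ± 0.276 (4.90 to 5.44%) in KEP and 4.63% ± 0.136 (4.55 to 4.79%) in WT, again without overlap. KEP tumor had 3.20% ± 0.209 (3.06 to 3.44%) and WT mammary gland 4.40% ± 0.659 (n = 4; 3.43 to 4.86%), where replicate 4, sorted from 4500 cells, held the 3.43%.

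**Figure D1:**
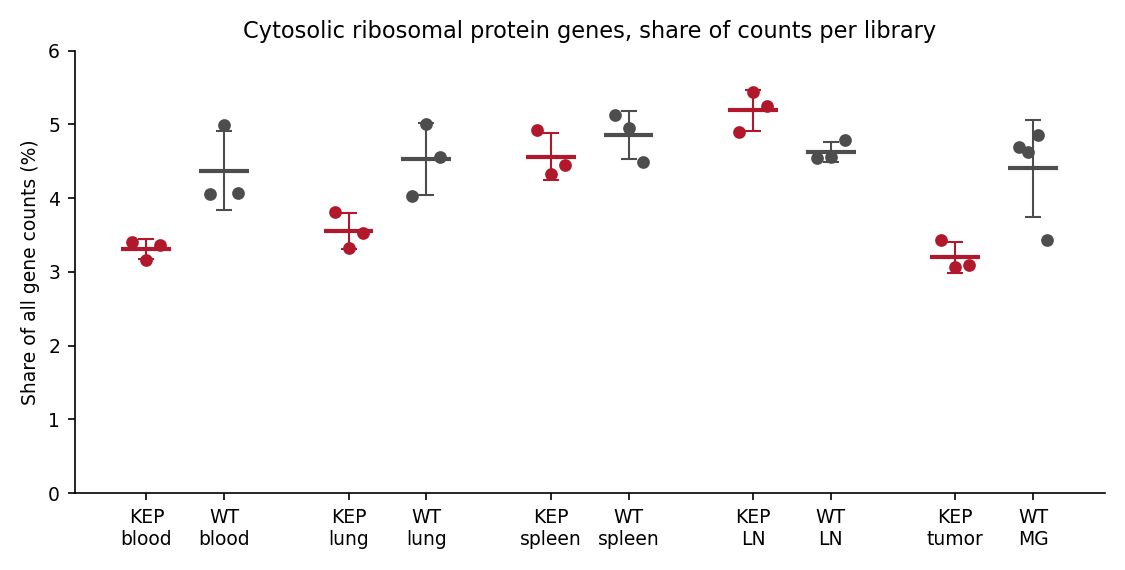
Share of all gene counts taken by the 82 cytosolic ribosomal protein genes in each library (points), with the group mean (thick line) and SD (error bar), KEP left of WT for each tissue. KEP blood and lung libraries lie at 3.16 to 3.81%, below every WT blood and lung library (4.03 to 5.00%), while KEP lymph node lies above WT lymph node.

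Nearly the whole family was lower in KEP than in WT lung Tregs. Of 81 members tested, 79 had a log2 fold change below 0, against 49.3% of all genes, and the median was -0.37 against 0.00 over all genes. The 3 KEP values lay below all 3 WT values for 52 members, against 15.5% of all genes. By edgeR's quasi-likelihood test with Benjamini-Hochberg adjustment over all genes, 13 members fell (5 of the large and 8 of the small subunit), where 1.42% of all genes fell, and none rose; 56 had an unadjusted p under 0.05, as had 19% of all genes. Leaving out any 1 library of the comparison left 0 to 2 calls: 0 without KEP lung replicate 2, 2 without KEP lung replicate 3 and 1 without each of the others. With each library scaled to the 10 pan-T genes no member and no other gene was called, and the median was -0.49. The spread in the fit is shared with the tumor and mammary gland libraries. With only the 24 libraries of blood, lung, spleen and lymph node, 55 of 80 members fell and none rose, where 10.3% of all genes fell.

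Rpl35a, a large-subunit protein whose human gene is mutated in some cases of Diamond-Blackfan anemia, lies at chr16:33056453-33060189 (GRCm38) and had the smallest p. It measured 61.7, 47.3 and 50.4 CPM in KEP lung, against 74.4, 87.6 and 89.5 CPM in WT lung. All KEP values were below all WT values, with a log2 fold change of -0.66 ± 0.14 (SE; edgeR adjusted p = 0.0152). Rps19, a small-subunit maturation factor and the gene most often mutated in that anemia, lies at chr7:24884371-24889806. It had 410, 353 and 373 CPM in KEP lung, against 542, 678 and 622 CPM in WT lung (log2 fold change -0.70 ± 0.17, edgeR adjusted p = 0.0237).

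Rps21, a small-subunit protein at chr2:180257377-180258445, had 299, 264 and 270 CPM in KEP lung, against 470, 440 and 515 CPM in WT lung. The groups lay far apart, and the log2 fold change was -0.77 ± 0.18 (edgeR adjusted p = 0.0248). Rps24, another small-subunit gene linked to the same anemia and singled out after its values were seen, had 468, 414 and 440 CPM in KEP lung, against 799, 728 and 924 CPM in WT lung (log2 fold change -0.89 ± 0.24, edgeR adjusted p = 0.0456). Rps2, which sits where messenger RNA enters the small subunit, was counted at only 14.3 CPM in each of the 3 KEP lung libraries, against 30.5, 23 and 33 CPM in WT lung (log2 fold change -1.01 ± 0.23, edgeR adjusted p = 0.0195). It lies at chr17:24718116-24721929 and overlaps exons of Snhg9 and Snora64. Rpl7a fell by 0.46 on the log2 scale (edgeR adjusted p = 0.0201) and Rps28 by 0.49 (edgeR adjusted p = 0.0288). Rps27rt, Rpl12, Rps25, Rpl27a, Rpl35 and Rps16 made up the rest of the 13, with log2 fold changes from -0.68 to -0.48.

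Most of the family was also lower in KEP than in WT blood Tregs. In KEP against WT blood, 79 of 81 members were below 0 (45.4% of all genes), with a median log2 fold change of -0.40 against 0.00 over all genes. KEP and WT values did not overlap, with KEP lower, for 61 members, against 12.8% of all genes. The edgeR test called 23 members lower (10 large, 13 small), where 2.14% of all genes were lower, and none higher; 58 had an unadjusted p under 0.05, as had 18.6% of all genes. Scaled to the 10 pan-T genes no member and 4 genes in all were called, and the median was -0.46. Leaving out WT blood replicate 2, which was sorted from 9000 cells and had the 5.00% share, left 3 calls. The count was also 3 without KEP blood replicate 3, 5 without KEP blood replicate 1, 11 without KEP blood replicate 2 and 14 without WT blood replicate 3. With the 24 libraries of 4 tissues, 56 of 80 members fell, where 10.3% of all genes fell.

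Rpl35a again had the smallest p, with 54.3, 45.8 and 44.8 CPM in KEP blood, against 74.5, 87.2 and 82.8 CPM in WT blood (log2 fold change -0.76 ± 0.14, edgeR adjusted p = 0.00505). Rpl10, an X-linked protein that is among the last to join the large subunit, had 253, 297 and 280 CPM in KEP blood, against 352, 393 and 370 CPM in WT blood. These groups were separate by a wide margin at a modest difference (log2 fold change -0.43 ± 0.09, edgeR adjusted p = 0.00746). Rps2 had 5.12, 5.16 and 4.21 CPM in KEP blood, against 13, 13.2 and 8.50 CPM in WT blood, the steepest fall among the 23 (log2 fold change -1.26 ± 0.24, edgeR adjusted p = 0.00565). Rps19 (-0.70 ± 0.17) and Rpl31 (-0.55 ± 0.13) were also among the members with the smallest p. Without WT blood replicate 2, Rps19 (edgeR adjusted p = 0.1001) and Rpl31 (edgeR adjusted p = 0.107) were not called.

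**Figure D2:**
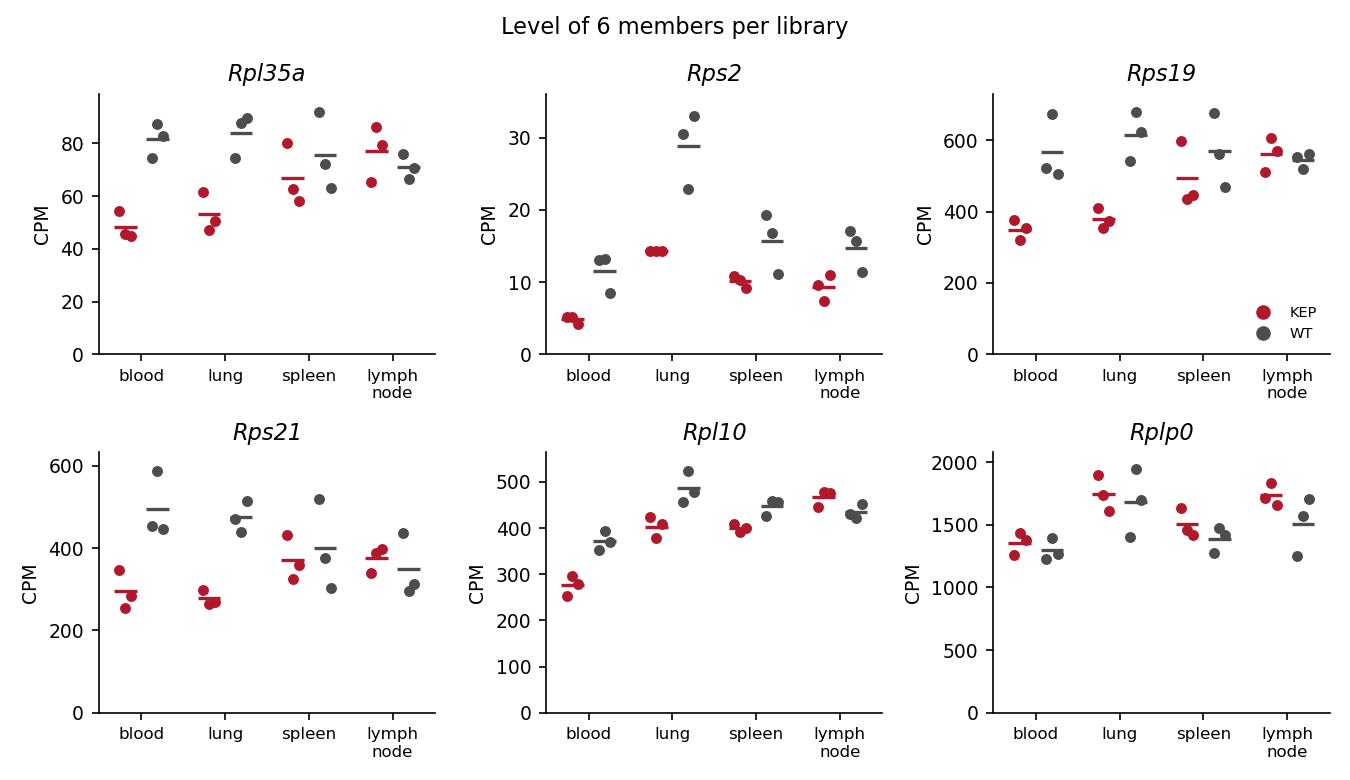
Level (CPM after TMM scaling, axis from 0) of 6 members in each library of blood, lung, spleen and lymph node, KEP (red) left of WT (grey), with the group mean as a line. Rpl35a, Rps2, Rps19 and Rps21 lie lower in KEP in blood and lung without overlap, while Rplp0 overlaps in both.

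Of the 13 members that fell in KEP lung, 11 also fell in KEP blood, which is 84.6% of the lung calls and 47.8% of the blood calls. These were Rpl12, Rpl27a, Rpl35a, Rps2, Rps16, Rps19, Rps21, Rps24, Rps25, Rps27rt and Rps28. Of the 81 members tested, 28.4% fell in KEP blood. In the fit of 24 libraries 51 members fell in both tissues, of 55 in lung and 56 in blood. The share of all genes that fell in both was not counted in either fit. Over 79 members with more than 1000 counts, the log2 fold changes in lung and blood had a Pearson r of 0.83 and a Spearman rho of 0.84 across genes, which are not independent replicates. The comparisons share no libraries, but the title dates are shared between tissues of a genotype. The same changes were only loosely related to the share of unique 65-base stretches (rho 0.15 in lung, 0.17 in blood) and to transcript length (rho 0.21 and 0.20). Members with at least as many unique as shared stretches had a median of -0.34 in lung and -0.35 in blood, and the others -0.38 and -0.43.

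**Figure D3:**
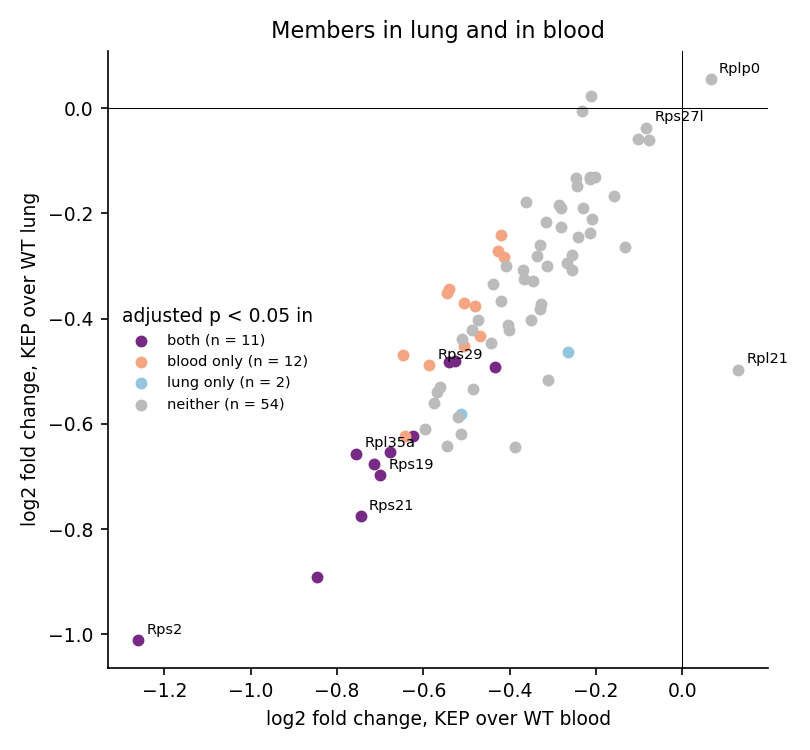
Log2 fold change (KEP over WT) of 79 members in blood (x axis) and lung (y axis), coloured by the tissue in which the adjusted p was under 0.05. The points run along the diagonal from Rps2 at -1.26 and -1.01 to Rplp0 at 0.07 and 0.06, and 11 members were past the threshold in both tissues.

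The windows around the annotated transcription starts of some of these 11 members show the range of their start sequences. The sequences run from 40 bases before the start to 20 bases from it on, from RefSeq (GRCm38.p6), 5′ to 3′ on the strand of the gene, and capitals mark a C followed by at least 4 pyrimidines that lies within 12 bases of the start, the pattern of a terminal oligopyrimidine start. Such a run was present in 8 of the 11 windows, a share close to that over all member promoters given below, and was absent in Rpl35a, Rps19 and Rps28. Of these windows 6 are shown, to set ones with a run beside ones without.
Rps21, chr2:180257339-180257398, + strand: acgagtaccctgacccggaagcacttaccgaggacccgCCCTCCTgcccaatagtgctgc
Rps24, chr14:24490638-24490697, + strand: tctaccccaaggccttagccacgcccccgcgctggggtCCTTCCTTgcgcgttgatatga
Rpl12, chr2:32961672-32961731, + strand: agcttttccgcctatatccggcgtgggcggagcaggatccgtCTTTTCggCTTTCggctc
Rps27rt, chr9:114982720-114982779, - strand: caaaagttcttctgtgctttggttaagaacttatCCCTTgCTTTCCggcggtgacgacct
Rpl35a, chr16:33056413-33056472, + strand: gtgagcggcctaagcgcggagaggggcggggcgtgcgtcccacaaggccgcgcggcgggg
Rps28, chr17:33824543-33824602, - strand: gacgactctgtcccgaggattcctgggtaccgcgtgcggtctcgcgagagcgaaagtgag

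Across the family, RefSeq promoters matched 61 members. The pyrimidine run was found near the start in 70.5% of them, against 39.96% of 27025 promoters of all genes, and on the opposite strand in 26.2% against 43.9%. Among 12 promoters of elongation and related factors it was found in 41.7%, and in 75% on the opposite strand. The run of letters CTTTCC occurred anywhere in the 300-base promoter, on the strand of the gene, in 37.7% of member promoters and 14.1% of all promoters, and on the opposite strand in 16.4% and 14.2%. A match describes the letters of these windows only, since the start actually used in Tregs was not measured.

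In spleen the family was slightly lower in KEP, and no member was past the threshold. The median log2 fold change was -0.10, and 66 of 81 members were below 0 (46.7% of all genes). Leaving out 1 library moved this median to between -0.16 and -0.03, with -0.16 without WT spleen replicate 3 or KEP spleen replicate 1, -0.03 without WT spleen replicate 1 and -0.05 without KEP spleen replicate 2. KEP values lay below all WT values for 16 members, against 9.57% of all genes. Neither edgeR nor DESeq2 nor limma-voom called a member, and edgeR called 0.447% of all genes. An unadjusted p under 0.05 by edgeR was reached by 2 members and by 7.99% of all genes. Rps2 had the smallest p, with 10.9, 10.2 and 9.21 CPM in KEP spleen, against 19.4, 16.8 and 11.1 CPM in WT spleen (log2 fold change -0.64 ± 0.23, edgeR adjusted p = 0.354).

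In lymph node the family leaned the other way. The median was 0.16, and 73 of 81 members were above 0, while 46.1% of all genes were below 0. Without KEP lymph node replicate 2 the median was 0.10. The 8 B cell genes summed to 861 to 942 CPM in KEP lymph node and 628 to 725 CPM in WT lymph node, and their part in the difference was not tested. KEP values lay above all WT values for 30 members, against 11.3% of all genes. Again edgeR, DESeq2 and limma-voom called none, and edgeR called 0.0132% of all genes; 12 members had an unadjusted p under 0.05 by edgeR, as had 5.75% of all genes. Rpl5, which with Rpl11 and a ribosomal RNA forms the particle that binds the p53 regulator Mdm2, had the smallest p. It measured 903, 970 and 944 CPM in KEP lymph node, against 715, 593 and 611 CPM in WT lymph node (log2 fold change 0.55 ± 0.16, edgeR adjusted p = 0.293). Rps2 was an exception, with 9.54, 7.42 and 10.9 CPM in KEP lymph node, against 17.1, 15.6 and 11.5 CPM in WT lymph node (log2 fold change -0.66 ± 0.23, edgeR adjusted p = 0.641), so KEP values of this gene lay below all WT values in each of the 4 tissues.

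The difference between tissues was tested directly by the interaction of genotype and tissue. The KEP effect in blood minus that in lymph node had a median of -0.54 over the members and 0 over all genes. Lung minus lymph node had a median of -0.50 over the members and -0.01 over all genes. Over all 31 libraries edgeR called no member and 0% of all genes in either pair, with a smallest adjusted p of 0.402 for blood and 0.662 for lung. In the fit of 24 libraries 26 members passed for blood minus lymph node, where 0.889% of all genes passed, and 2 for lung minus lymph node, where 0.133% passed. Between blood and lung edgeR called no member in either fit (median -0.04, smallest adjusted p 1.00 over 31 libraries and 0.738 over 24).

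**Figure D4:**
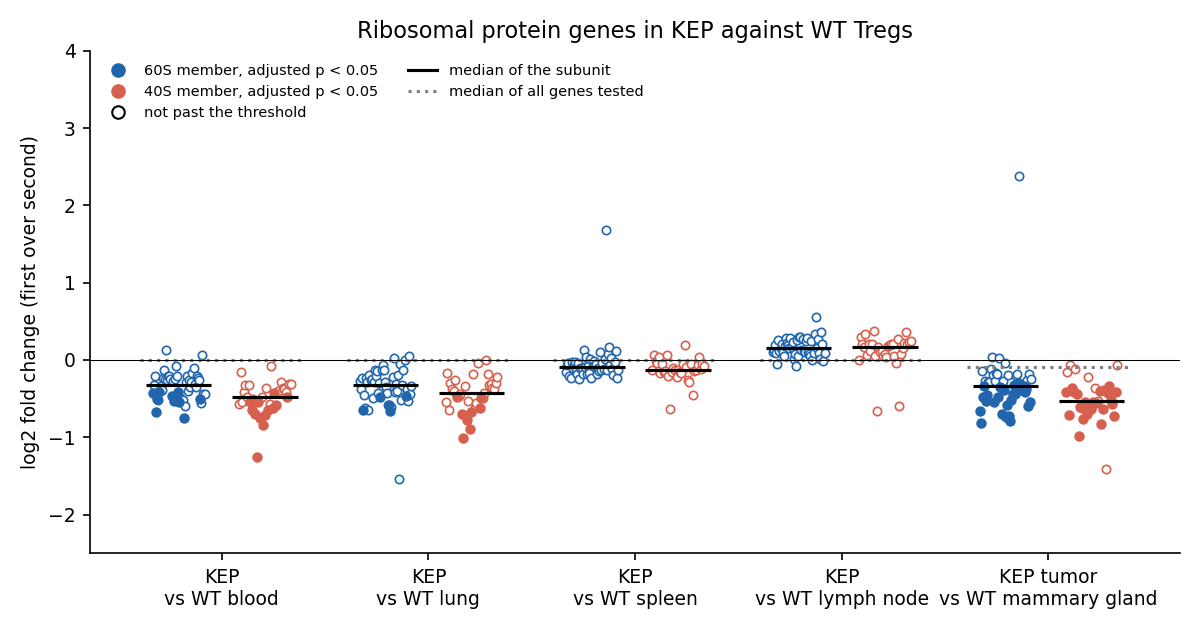
Log2 fold change of each member in the 5 comparisons of KEP with WT, large-subunit members in blue and small-subunit members in red; filled points had an adjusted p under 0.05, black lines are subunit medians and dotted lines the median of all genes tested. Filled points lie below 0 in blood, lung and tumor against mammary gland, and there are none in spleen or lymph node.

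In KEP tumor against WT mammary gland many members were called lower. Here 52 of 81 fell (27 large, 25 small) and none rose by edgeR, where 29.5% of all genes fell, with a median of -0.41 against -0.10 over all genes. Without 1 library, 38 to 58 fell, and with only the 7 libraries compared 8 were called. Rpl10 had 368, 362 and 395 CPM in KEP tumor, against 543, 627, 600 and 612 CPM in WT mammary gland (log2 fold change -0.67 ± 0.08, edgeR adjusted p = 5.21e-07). Rpl10a had 315, 250 and 266 CPM in KEP tumor, against 500, 490, 558 and 407 CPM in WT mammary gland (log2 fold change -0.82 ± 0.11, edgeR adjusted p = 1.06e-06). Rps28 (-0.83 ± 0.12) and Rpl31 (-0.73 ± 0.12) also fell. The groups did not overlap for any of these members. They were named for the smallest p in this same comparison, so the lack of overlap adds nothing to the test. Beside them, 12 epithelial marker genes summed to 176 to 2480 CPM in KEP tumor and 5695 to 7864 CPM in WT mammary gland, 7 adipocyte genes to 36.6 to 70.9 CPM in KEP tumor and 569 to 872 CPM in WT mammary gland, and 11 macrophage genes to 961 to 5985 CPM in KEP tumor and 380 to 855 CPM in WT mammary gland. The part of these cells in the fall was not tested. Scaled to the 10 pan-T genes, the members' median was -3.81 and that of all genes -3.49. Against mammary gland library 2 alone, which has the most pan-T RNA (a comparison chosen after seeing the data), the median of log2(CPM + 1) differences was -0.58. All 13 members that fell in KEP lung and 20 of the 23 that fell in KEP blood were among these 52. The 52 are 64.2% of all members tested, so much overlap would be found in any case.

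Small-subunit members had the lower median in each of these falls, with -0.42 for the small and -0.32 for the large subunit in KEP lung, -0.49 and -0.32 in KEP blood, and -0.53 and -0.33 in KEP tumor against mammary gland. When each library was scaled to the geometric mean of the family itself, few members were called. In KEP lung, Rpl36al (0.40 ± 0.11), Rplp0 (0.44 ± 0.13) and Rpl7 (0.37 ± 0.12) were higher relative to the family and Rps19 (-0.32 ± 0.10), Rps2 (-0.65 ± 0.22) and Rps21 (-0.41 ± 0.14) lower, 6 of 81 in all by edgeR. In KEP blood Rplp0 (0.47 ± 0.13) and Rpl21 (0.52 ± 0.18) were higher and Rps2 (-0.85 ± 0.23), Rpl35a (-0.35 ± 0.12) and Rps19 (-0.29 ± 0.10) lower. On that scale 17.9% of all genes were higher and 0.132% lower in KEP lung, and 21.1% and 0.362% in KEP blood. Rplp0, the stalk base, barely differed on the usual scale. It had 1899, 1737 and 1608 CPM in KEP lung, against 1403, 1946 and 1696 CPM in WT lung, and 1262, 1433 and 1376 CPM in KEP blood, against 1229, 1394 and 1268 CPM in WT blood. Relative to the family, 13 members were higher and 7 lower in KEP tumor against mammary gland, where 39% of all genes were higher and 15.5% lower. Rpl19 (0.46 ± 0.09), Rpl27 (0.45 ± 0.09), Rps13 (0.36 ± 0.09) and Rpl30 (0.38 ± 0.10) led the higher ones, and Rpl10a (-0.41 ± 0.09), Rps28 (-0.42 ± 0.11) and Rpl35a (-0.37 ± 0.11) were among the lower ones. No member was called on that scale in spleen or lymph node by edgeR, where 0.447% and 0.00658% of all genes were higher; the smallest p in lymph node was that of Rps2 (-0.81, edgeR adjusted p = 0.304).

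Between tissues, averaged over KEP and WT, blood stood lower than spleen. Here 38 of 81 members were lower and 1 was higher by edgeR, where 9.99% of all genes were lower and 10.2% higher, with a median of -0.25. Scaled to the 10 pan-T genes no member was called, and with cell number as a covariate 20 were. The higher member, Rps27l, lost its call in 9 of 15 other alternatives (RLE factors, only the libraries compared, DESeq2 and leaving out each of 12 libraries). Rpl10 averaged 324 ± 55.6 CPM in blood and 424 ± 28.4 CPM in spleen (SD, n = 6 each; log2 fold change -0.40 ± 0.06, edgeR adjusted p = 4.15e-05). Rps28 (-0.50 ± 0.09), Rpl23 (-0.44 ± 0.09), Rpl8 (-0.50 ± 0.10) and Rpl36a (-0.46 ± 0.10) were also lower. Lung and spleen were closer, with 4 members higher and 3 lower, where 22.2% of all genes were higher and 20% lower. Rpl7a (0.40 ± 0.08), Rps2 (0.69 ± 0.16), Rpl21 (0.40 ± 0.11) and Rplp0 (0.25 ± 0.10) were higher in lung, and Rps27l (-0.55 ± 0.19), Rpl22 (-0.19 ± 0.07) and Rpl36al (-0.19 ± 0.07) lower. Many other genes share 65-base stretches with Rpl7a (92), Rps2 (58) and Rpl21 (69), so the counts of these 3 are uncertain. Scaled to the 10 pan-T genes none of the 7 members was called. Over 15 other alternatives (RLE factors, only the libraries compared, DESeq2 and leaving out each of 12 libraries), Rpl22 and Rpl36al each lost the call in 10, Rplp0 in 8 and Rps27l in 3, with highest adjusted p of 0.113, 0.14, 0.15 and 0.0795 by edgeR or DESeq2, while Rpl7a, Rps2 and Rpl21 kept it in all 15. Between lymph node and spleen no member was called by edgeR or limma-voom and 1 by DESeq2 (5 of 81 at an unadjusted p under 0.05 by edgeR, against 18.7% of all genes; median 0.04), where 6.76% of all genes differed by edgeR.

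KEP tumor against KEP spleen gave 41 members lower and 2 higher by edgeR, where 25.9% of all genes were lower and 35.6% higher, with a median of -0.33 for the family and 0.13 for all genes. Rps29 averaged 316 ± 53.8 CPM in KEP tumor and 567 ± 46.4 CPM in KEP spleen (SD, n = 3 each; log2 fold change -0.84 ± 0.15, edgeR adjusted p = 3.26e-05). Rps27rt (-0.89 ± 0.16), Rps16 (-0.68 ± 0.13), Rps15 (-0.65 ± 0.14) and Rps7 (-0.57 ± 0.12) were also lower, and 23 of the 41 were of the small subunit. Beside this, macrophage genes summed to 961 to 5985 CPM in KEP tumor and 17.9 to 38.2 CPM in KEP spleen, neutrophil genes to 161 to 2515 CPM in KEP tumor and 9.80 to 106 CPM in KEP spleen, and epithelial genes to 176 to 2480 CPM in KEP tumor and 15.4 to 26.1 CPM in KEP spleen. Mmp9 made up most of the neutrophil sum in KEP tumor (846 ± 1344 CPM, against 10.1 CPM in KEP spleen). Of the neutrophil genes, Mmp9, Csf3r and Ltf were called higher in tumor by edgeR. S100a8, S100a9, Retnlg and Mmp8 were not called, and Ngp averaged lower without a call (0.662 CPM in tumor, 5.41 CPM in spleen). The part of these other cell types was not tested. With the 10 pan-T genes as the scale, the median of the family was 0.53 and that of all genes 1.00, with 2 members higher and none lower. Without KEP spleen replicate 1 or KEP tumor replicate 2, 28 members were called. The 2 higher members were Rps27l and Rps4l. Rps27l, a p53-responsive paralog of Rps27, had 28.5, 32.9 and 49.8 CPM in KEP tumor, against 22.4, 12.9 and 17.8 CPM in KEP spleen (log2 fold change 1.07 ± 0.26, edgeR adjusted p = 0.00101). Rps4l was counted at 0.098 to 1.54 CPM in KEP tumor and 0 to 0.168 CPM in KEP spleen, with overlap. Its KEP spleen counts lay under the minimum count of the filter, so it was tested only through libraries of other groups. The call of Rps4l is thus no support for a difference.

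Paralog pairs were compared next. Rps27l ranged from 9.35 to 14.1 CPM in KEP lung and 9.42 to 13 CPM in WT lung, and was highest at 42.6 to 67.5 CPM in WT mammary gland. Its partner Rps27, of whose stretches only 1.42% are unique, had 298, 256 and 301 CPM in KEP blood, against 397, 530 and 407 CPM in WT blood (log2 fold change -0.64 ± 0.18, edgeR adjusted p = 0.0427). Rpl36al had 61.0, 58.3 and 60.2 CPM in KEP blood, against 63.9, 82.4 and 61.5 CPM in WT blood (log2 fold change -0.21 ± 0.10, edgeR adjusted p = 0.279), and Rpl36a -0.28 ± 0.14. Rpl3 (-0.21 ± 0.12), Rpl39 (-0.28 ± 0.12) and Rps4x (-0.29 ± 0.13) did not pass in KEP blood. Rpl39l, known from testis, was below 3 CPM in all libraries, and Rpl10l was not among the genes counted.

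Ribosomal protein genes that the naming rule left out were taken from a list, to which Rps3a1 was added after the file was seen. Of 6 tested, 1 fell in KEP blood and none in KEP lung by edgeR, with medians of -0.34 and -0.33. Rps3a1 averaged 561 CPM in KEP blood and 748 CPM in WT blood (log2 fold change -0.41 ± 0.11, edgeR adjusted p = 0.0354), and its difference in lung was -0.31 ± 0.11 (edgeR adjusted p = 0.12). Fau (-0.31 in blood, -0.35 in lung), Gnb2l1, which encodes Rack1 (-0.26 and -0.14), Rpl22l1 (-0.38 and -0.36) and Rpl7l1 (0.04 and -0.10) did not pass. In tumor against mammary gland 3 of the 6 were called lower (Rps3a1, Rpl22l1 and Gnb2l1), where 29.5% of all genes were.

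The mitochondrial ribosome has its own protein set. Of 76 mitochondrial ribosomal protein genes tested, 1 fell in KEP lung (Mrps15, -0.43 ± 0.11) and 6 in KEP blood (among them Mrps15, -0.53 ± 0.11, and Mrpl38, -0.82 ± 0.18), with medians of -0.04 and -0.08, against -0.37 and -0.40 for the cytosolic genes; 1.42% of all genes fell in KEP lung and 2.14% in KEP blood. In lymph node the medians were alike, 0.14 for the mitochondrial and 0.16 for the cytosolic genes, and KEP values lay above all WT values for 26 of 76 mitochondrial and 30 of 81 cytosolic genes, against 11.3% of all genes; none of either was called by edgeR. In lung against spleen over both genotypes 58 of 76 were lower and none higher, where 20% of all genes were lower and 22.2% higher, with a median of -0.50, where the cytosolic genes had 3 of 81 lower and a median of -0.06. Mrpl44, a protein of its large subunit, averaged 6.51 CPM in lung and 22.3 CPM in spleen (log2 fold change -1.78 ± 0.13, edgeR adjusted p = 1.28e-10). The difference between the families was not tested.

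Other genes of translation were described from lists. Of 18 genes of elongation and related factors whose transcripts are known for the same pyrimidine start, none was called in KEP lung or KEP blood by edgeR, with medians of 0.02 and -0.01. The smallest p belonged to Eef1d in lung (-0.20 ± 0.09, edgeR adjusted p = 0.228) and to Eef1g in blood (-0.41 ± 0.14, edgeR adjusted p = 0.0996). In spleen and lymph node none was called either (Btf3 0.20 ± 0.10, edgeR adjusted p = 0.648; Naca 0.45 ± 0.12, edgeR adjusted p = 0.254), with a lymph node median of 0.21. In tumor against mammary gland 4 of 18 were called lower (Eef1b2, Eif4b, Eef1g and Naca), where 29.5% of all genes were, so the list does not stand above that share. Of 16 initiation factors none was called in lung or blood (Eif4e 0.41 ± 0.13, edgeR adjusted p = 0.0802; Eif4g2 0.30 ± 0.11, edgeR adjusted p = 0.147), with medians of 0.14 and 0.08. Of 17 genes of mTORC1 signalling, only Rheb, its activating GTPase, was called in KEP lung, where it rose (0.35 ± 0.08, edgeR adjusted p = 0.0223). Rptor, the scaffold of the complex, fell in KEP blood (-0.50 ± 0.10, edgeR adjusted p = 0.0069). So did Larp1, which binds pyrimidine starts (-0.41 ± 0.10, edgeR adjusted p = 0.0192), where 2.14% of all genes fell. Neither fall was particular to blood. Without a call, Rptor was also lower in KEP lung (-0.31), spleen (-0.27) and lymph node (-0.38). Larp1 had -0.26, -0.31 and -0.12 in these tissues, also without a call.

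**Figure D5:**
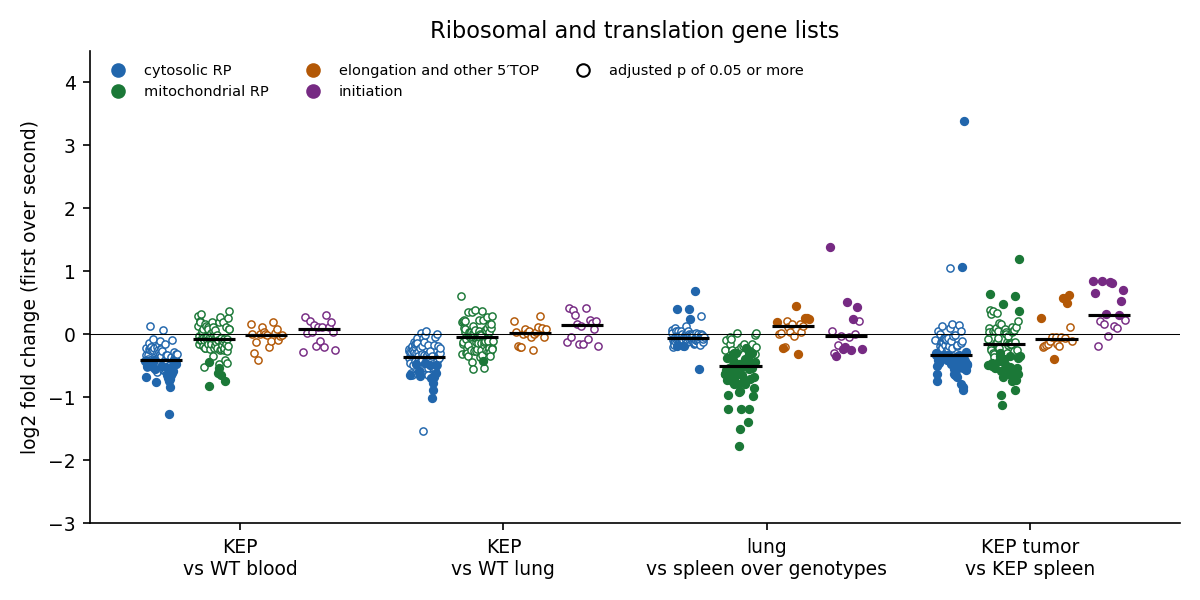
Log2 fold changes of the cytosolic ribosomal proteins, the mitochondrial ribosomal proteins, the elongation and related factors and the initiation factors in 4 comparisons; filled points had an adjusted p under 0.05 and black lines are medians. The cytosolic genes lie low in KEP against WT blood and lung (medians -0.40 and -0.37), and the mitochondrial genes lie low in lung against spleen (median -0.50).

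Marker sums of Tregs and of other cell types were set beside the fall in lung and blood. The 9 detected genes of the Treg list summed to 7383 to 7594 CPM in KEP lung and 4747 to 5641 CPM in WT lung, and to 5302 to 6532 CPM in KEP blood and 3183 to 4080 CPM in WT blood. None of these 9 was called in either tissue (smallest edgeR adjusted p 0.133 in lung and 0.203 in blood, both for Capg). The 8 B cell genes summed to 508 to 544 CPM in KEP lung and 359 to 457 CPM in WT lung, and to 824 to 999 CPM in KEP blood and 603 to 734 CPM in WT blood. The 11 macrophage genes summed to 41.7 to 85.4 CPM in KEP lung and 108 to 187 CPM in WT lung, and to 49.7 to 81.2 CPM in KEP blood and 42.1 to 52.8 CPM in WT blood. Members moved both ways. Itgam averaged 18.7 CPM in KEP lung and 6.29 in WT lung, and 27.1 in KEP blood and 9.33 in WT blood. Lyz2, Cd68, Mrc1 and Fcgr3 averaged lower in KEP lung, and Csf1r and Cd68 lower in KEP blood. Only Fcgr3 in lung was called (0.488 CPM in KEP and 3.10 CPM in WT, edgeR adjusted p = 0.0380). The 12 epithelial genes summed to 25.8 to 33.4 CPM in KEP lung and 15.4 to 25.2 CPM in WT lung. In blood they summed to 25.3 to 43.8 CPM in KEP and 6.67 to 15.8 CPM in WT. Epcam averaged 18.2 CPM in KEP lung and 8.48 CPM in WT lung. In blood Epcam averaged 25.95 CPM in KEP and 6.33 CPM in WT. Krt18 also averaged higher in KEP in both tissues. Krt19 averaged lower in KEP lung (0.730 CPM, against 4.13 CPM in WT lung). Cdh1 averaged lower in KEP blood (1.23 CPM, against 3.52 CPM in WT blood). The remaining genes averaged at most 0.328 CPM in these groups. None of the 12 was called in either tissue by edgeR. The 7 red cell genes summed to 1991 to 4467 CPM in KEP blood and 1981 to 8103 CPM in WT blood, with overlap. Cell numbers ran from 17000 to 70000 in KEP blood and from 9000 to 30000 in WT blood, and with cell number as a covariate 15 members fell in blood. The part of these differences in the fall of the ribosomal protein genes was not tested.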

How the data were processed

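Gene counts of 31 libraries were used as deposited by the authors, whole numbers per gene and not normalized. Per the submitters' processing notes, TopHat2 2.1.0, HTSeq and the build GRCm38 were used; how reads with several matches and strand were handled is not given in the sources used here. Libraries were grouped by tissue and genotype from their labels. The total count per library was 8154765 to 15258958.

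Counts were tested across all genes with edgeR 4.0.16 in R 4.3.3 (TMM factors, quasi-likelihood F test with robust fit), with 1 mean for each of 10 groups. Genes had to pass a minimum count of 10 in enough libraries, which left 15202 genes, and calls were made where the p-value, adjusted over these genes by Benjamini and Hochberg, was below 0.05. CPM values are scaled by the same TMM factors. Alternatives were DESeq2 1.42.0, limma 3.58.1 (limma-voom), other scalings, filters and sets of libraries, and leaving out each library. The fit was also run on simulated counts, but the outcome is not given here, so it bears on no call. WT libraries are pools of 3 mice and KEP libraries are single mice, so the spread is of different kinds in the 2 genotypes.

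The members and all lists were chosen with earlier results of these data known, so no p is given for the family as a whole. Named genes were up to 6 members each way with the smallest p among those called per comparison, up to 4 each way relative to the family, the 5 highest and the 5 lowest by level per kb, paralog pairs and, of the other lists, called genes or the one with the smallest p; only part of the last is printed. Of 33 pairs of replicates none was a duplicate (lowest chi-square per degree of freedom 4.67). Title dates pair the 4 tissues, more clearly in KEP. All 18 same-date KEP pairs had correlated deviations over 0.1 (median r 0.27), against 7 of 18 in WT (median r 0.09). Pairs of different dates had a median r of -0.15 in KEP and -0.04 in WT. Of 12 same-date pairs with KEP tumor 1 was over 0.1 (median r -0.003). The main fit has no term for the date. What the dates mark is not given in the sources used here, and no date holds both genotypes. Some genes that this rule names are not reported here.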

Additional observations from a re-analysis of the deposited data

Results flagged for a closer look

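In WT mammary gland, replicate 4, sorted from 4500 cells, had 3.43% of its counts in the family, below 4.63 to 4.86% in the other 3 libraries. Its gap to the nearest library was 0.840 of the range of the group, above the critical value of 0.829 for 4 samples; chance gives such a gap in about 1 in 20 groups, and this was the only one of 7 measures tested in that group to pass.

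The KEP effect on some members differed between tissues by a test of the difference itself. This was in the fit of the 24 blood, lung, spleen and lymph node libraries. In blood minus lymph node 26 of 80 members were lower (smallest edgeR adjusted p 0.0116), where 0.889% of all genes were called. In lung minus lymph node 2 of 80 were lower (smallest edgeR adjusted p 0.0319), where 0.133% of all genes were called. No member was called in the other pairs of these tissues. Over all 31 libraries no member was called in any pair.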

How the results depend on the processing

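Counts of called members depended on the setting, while the median of the family kept its sign under every alternative run in the 5 comparisons of KEP with WT, in lymph node against spleen and in blood against spleen. In lung against spleen the median (-0.06) ran from -0.12 to 0.03. Of the alternatives other than leaving out a library, 90 counts stayed within 1.5 times and 28 did not. For KEP lung (13 called) the count was 0 scaled to pan-T genes, 5 with no filter and 23 with a minimum count of 50. It was 21 with a GC and length correction and 37 with only the libraries compared. With 24 libraries it was 55, where 10.3% of all genes fell, and with DESeq2 38, where 956 genes were called in all. For KEP blood (23) it was 0 scaled to pan-T genes, 15 with cell number and 43 with only the libraries compared. With 24 libraries it was 56, where 10.3% of all genes fell, and with DESeq2 44, where 1064 genes were called in all. For KEP tumor against mammary gland (52) the count was 8 with only the libraries compared. It was 80 scaled to pan-T genes, where the median of all genes was also far below 0. For KEP lymph node (0) it was 3 with only the libraries compared. For lung against spleen (7) it was 0 scaled to pan-T genes and 4 with no filter. For lymph node against spleen (0) it was 1 with the date block, 5 with 24 libraries, 6 with only the libraries compared and 1 with DESeq2. For blood against spleen (39) it was 0 scaled to pan-T genes and 20 with cell number. For KEP tumor against KEP spleen (43) it was 28 with RLE factors, 2 scaled to pan-T genes and 13 with only the libraries compared, and its median reversed to 0.53 scaled to pan-T genes. For the interactions (0) it was 28 with 24 libraries and 9 with DESeq2. The cause was not tested. The share of all genes called is not printed for each setting. These counts thus show how calls depended on the setting and are no result about the family. Leaving out 1 library gave 0 to 2 in KEP lung, 3 to 18 in KEP blood, 38 to 58 in KEP tumor against mammary gland, 4 to 7 in lung against spleen, 0 to 1 in lymph node against spleen, 32 to 43 in blood against spleen and 28 to 45 in KEP tumor against KEP spleen. With the title date as a replicate block, 14 members were called in KEP lung, 25 in KEP blood and 55 in KEP tumor against mammary gland by limma, and 7, 43 and 46 by edgeR in lung, blood and KEP tumor against spleen. Intervals here cover the spread between these libraries only.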
